A study of Homo sapiens with 4 samples.

Results

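The endoplasmic reticulum (ER) genes described here are 37 named genes for protein folding, translocation into the ER, ER-associated degradation (ERAD) and the sensing of unfolded protein. They were chosen by name, and 36 of them had a row in the table of 26603 genes. HYOU1, an ER chaperone gene of the Hsp70 superfamily, was not analysed here. Of the 36, 35 reached a mean of 1 FPKM in a group and were tested. CRELD1 did not (0.367 and 0.341 FPKM in controls, 0.217 and 0.338 FPKM with drug). FPKM is the number of sequenced fragments scaled for gene length and library total.

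The cells were PLC8024, an established line from human liver cancer, sequenced as 2 control and 2 drug libraries. No agent is named, and the labels give no dose, duration or vehicle and no allele or treatment that the groups share. They do not say whether a replicate is its own culture, so a p-value here reflects the scatter of these 4 libraries, which may be technical. A single line is a single genetic background. Recovered gene reads ran from 28526098 to 40279560 per library, and the tested ER genes had 743 to 55868 reads each in a library. Of 12 hepatocyte markers 9 reached 1 FPKM, while AFP, APOB and TTR did not. The summed level of the 12 was 2401 and 2408 FPKM in controls and 1651 and 1559 FPKM with drug. The fibrinogen chain genes FGA, FGB and FGG made up 2150 and 2152 FPKM of this in controls and 1382 and 1301 FPKM with drug, whereas the other 9 summed to 250.9 and 256 against 269 and 258 FPKM. Among those 9, APOA2 and HNF4A rose (limma adjusted p = 0.0246 and 0.0210). ALB, TF and APOA1 fell (limma adjusted p = 0.00391, 0.0109 and 0.0397), and SERPINA1 did not pass (0.918). The 5 epithelial markers summed to 301 and 314 FPKM in controls and 400.4 and 422 FPKM with drug. Of these, KRT8 and KRT18 rose (limma adjusted p = 0.00851 and 0.00391). CDH1 fell, from 12.4 and 12.4 FPKM in controls to 7.72 and 7.87 FPKM with drug (limma adjusted p = 0.00175). KRT19 did not pass limma (adjusted p = 0.130), and EPCAM lay under 1 FPKM. The part of these marker shifts in the ER gene results was not tested. ALB was low, at 3.15 and 3.23 FPKM in controls and 1.31 and 1.32 FPKM with drug. None of 6 fibroblast markers reached 1 FPKM. Of 3 endothelial markers in the table only PECAM1 did (4.66 and 4.11 FPKM in controls, 2.09 and 2.23 FPKM with drug).

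Secreted and membrane proteins enter the ER through the SEC61 channel, lose their signal peptide, receive glycans and disulphide bonds, and are folded by chaperones such as BiP, calnexin and calreticulin. Molecules that fail are drawn back to the cytosol by ERAD, built around the SEL1L and HRD1 (SYVN1) complex, and are degraded by the proteasome. Unfolded protein activates the sensors IRE1 (ERN1), PERK (EIF2AK3) and ATF6. Hepatocytes secrete large amounts of plasma protein and depend on this machinery. ATF6 and spliced XBP1 act on promoters through the ER stress response element (ERSE) and its relative ERSE-II.

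RefSeq promoter windows (GRCh38.p14) were found for 32 of the 36 genes, and the 250 bases before each annotated start were searched on both strands. ERSE, spelled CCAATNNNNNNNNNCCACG, was present in windows of 5 of the 32 genes and in 0.074% of all 35116 windows. ERSE-II, spelled ATTGGNCCACG, was present before 2 of the 32, HERPUD1 and SDF2L1, and in 0.0513% of all windows. Both of these elements end in CCACG, which is also the reverse complement of letters in the UPRE, a site bound by XBP1 and ATF6. The UPRE, spelled TGACGTGG, lay before SSR3 and SSR4 (2 of 32, against 0.612% of windows). The cAMP response element TGACGTCA lay before CREB3L2 (1 of 32, against 1.65%), and the element TGATGNAA, the form bound by ATF4, lay before HERPUD1 and SRPRB (2 of 32, against 3.14%). Windows of a gene with several starts overlap, and a match describes the letters, not binding. A RefSeq start can lie inside the GENCODE span of its gene, as for the ERSE sites of CANX, PDIA6 and CRELD2. The shares are not like for like. A gene counts if any of its windows matches (44 windows for the 32 genes), while the percentages count single windows.

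The 7 sites are shown because 2 of the 3 ER genes that fell carry ERSE-II, and the other 5 genes carry the full ERSE. Capitals mark the element and lower case the 5 bases on either side, 5′ to 3′ on the strand of the gene. In CALR, CRELD2 and SDF2L1 the element reads on the opposite strand. The sites lie at chr16:56932020-56932040 (HERPUD1, + strand), chr22:21642109-21642129 (SDF2L1, + strand), chr19:12938379-12938407 (CALR, + strand), chr5:179698773-179698801 (CANX, + strand), chr2:10812848-10812876 (PDIA6, - strand), chr22:28800598-28800626 (XBP1, - strand) and chr22:49918549-49918577 (CRELD2, + strand).
HERPUD1: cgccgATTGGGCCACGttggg
SDF2L1: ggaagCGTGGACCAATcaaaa
CALR: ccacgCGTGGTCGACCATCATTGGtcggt
CANX: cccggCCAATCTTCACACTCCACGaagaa
PDIA6: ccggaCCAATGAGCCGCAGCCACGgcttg
XBP1: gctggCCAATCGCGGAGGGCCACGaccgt
CRELD2: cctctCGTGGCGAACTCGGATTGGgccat

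The longer upstream sequence is given for HERPUD1 and SDF2L1, which carry ERSE-II and fell. Each stretch ends at the base before the nearest annotated exon of GENCODE 29, and capitals mark motif matches. In HERPUD1 (chr16:56931892-56932047, GRCh38.p14, + strand) the ATF4-type element lies 176 to 169 bases and ERSE-II 117 to 107 bases before the RefSeq start. In SDF2L1 (chr22:21642052-21642260, GRCh38.p14, + strand) ERSE-II lies 188 to 178 bases before the start.
HERPUD1: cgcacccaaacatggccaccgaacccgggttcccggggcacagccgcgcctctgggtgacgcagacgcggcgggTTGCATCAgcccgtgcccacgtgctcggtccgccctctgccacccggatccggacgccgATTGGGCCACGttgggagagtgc
SDF2L1: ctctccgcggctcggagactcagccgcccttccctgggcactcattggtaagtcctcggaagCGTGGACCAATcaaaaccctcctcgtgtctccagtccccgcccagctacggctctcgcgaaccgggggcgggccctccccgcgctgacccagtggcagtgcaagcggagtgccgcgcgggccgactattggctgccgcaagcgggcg

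The comparison asks which of these genes differed between drug and control cells. With drug, HERPUD1, SDF2L1 and MANF fell and ATF6 and SEL1L rose, by 12.3% to 28.0%, while XBP1 and most folding, translocation and ERAD genes did not pass the test. By limma on log2(FPKM + 1), with p-values adjusted over all 11227 genes tested, 2 of 35 ER genes were higher (5.71%) and 3 lower (8.57%). Over all genes tested 7.78% were higher and 6.02% lower, so both shares among the ER genes lay near the background. The median log2 fold change of the 35 genes was 0.0003, against 0.036 for all genes tested. Their median absolute log2 fold change was 0.07, against 0.10 for all genes, and 22 of the 35 lay under 0.1. In bulk RNA a change in the share of cells that express a gene and a change in RNA per cell cannot be told apart.

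The order of the libraries gives a second view of the same 35 genes. Both drug libraries lay above both controls in 14 genes (all genes tested, 40.3%) and below both controls in 12 (all genes, 23.3%). None of the 10 tested folding genes lay above both controls and 8 lay below, while 7 of 12 translocation genes lay above and 2 below. The translocation split depended on scaling. After rescaling FPKM with TMM factors, 1 of 12 lay above and 3 below, whereas 9 of 10 folding genes lay below and 0 above. With that rescaling 8 of the 35 lay above both controls (all genes, 33.3%) and 17 below (all genes, 27.9%).

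**Figure D1:**
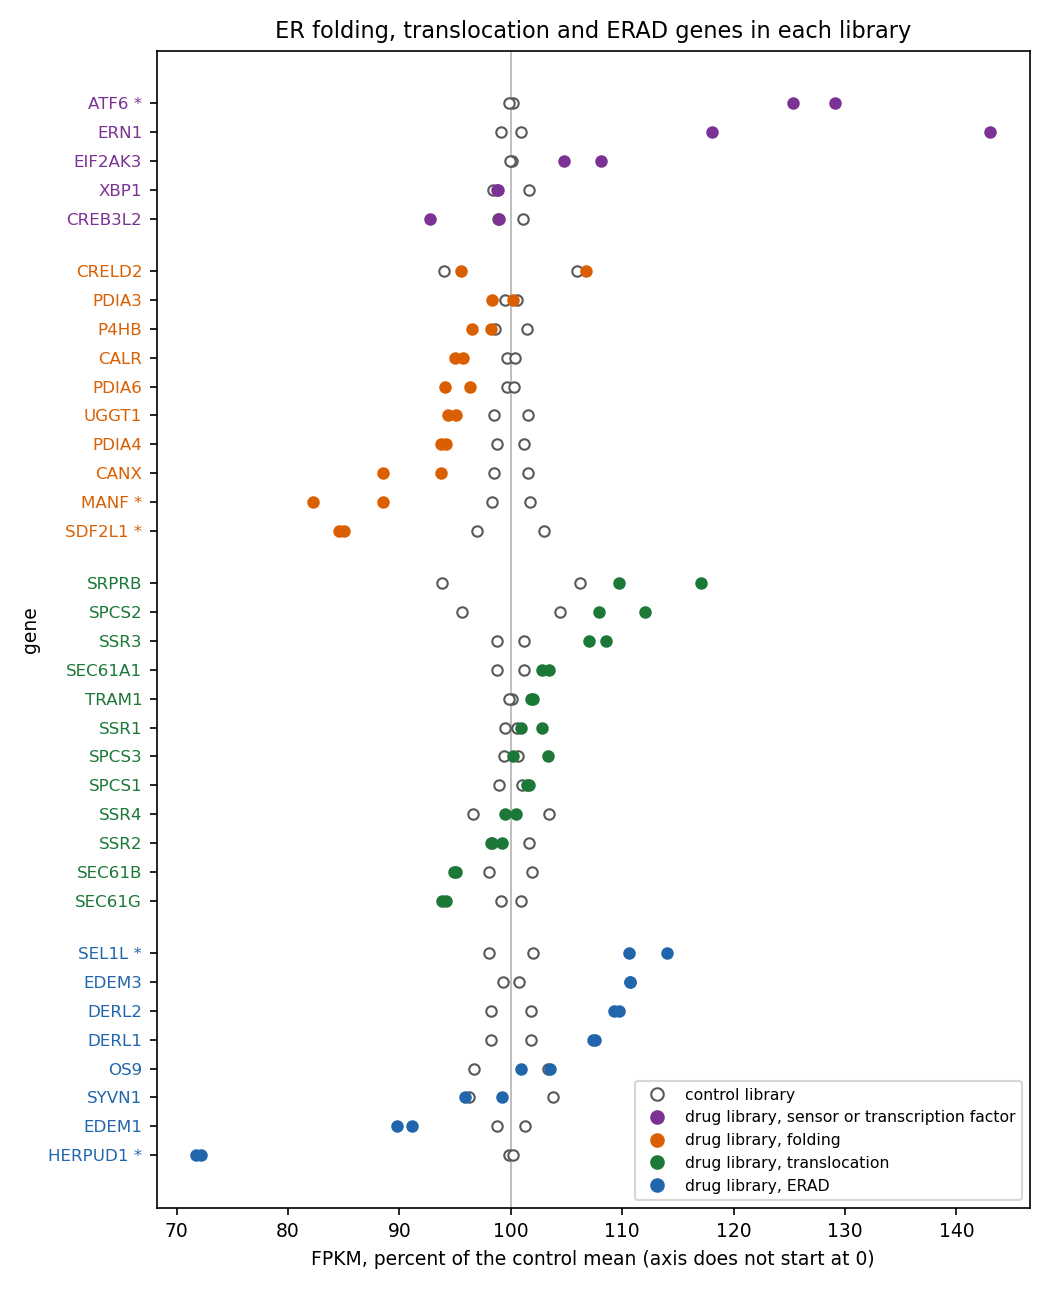
FPKM of the 35 tested ER genes in each library, as a percent of the control mean of the gene (horizontal axis, not starting at 0); open circles are control libraries, filled circles drug libraries, colours are roles, and asterisks mark genes that passed limma. HERPUD1 stands lowest and ERN1 and ATF6 highest, and the drug libraries of 8 of 10 folding genes lie to the left of both controls.

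Among ERAD genes, HERPUD1 had the largest log2 fold change in size of all 35 genes. In percent of the control mean ERN1 stood further from 0 (30.5%), without passing limma. HERPUD1 (ENSG00000051108, chromosome 16, 56932048 to 56944863, GRCh38) encodes a ubiquitin-like ER membrane protein of the HRD1 complex, and its level was 28.3 and 28.4 FPKM in controls and 20.5 and 20.4 FPKM with drug. The groups did not overlap, and replicates of HERPUD1 differed far less than the groups. HERPUD1 fell by 28.0%, from 28.4 ± 0.0722 to 20.4 ± 0.0860 FPKM (SD, n = 2 each; limma adjusted p = 0.00213, log2 fold change -0.46 ± 0.03 SE). HERPUD1 kept its call in all 11 alternatives run, with limma adjusted p between 0.0197 and 0.0290 when 1 library was left out. By edgeR on recovered reads it had an adjusted p of 2.58e-05. Its annotated span overlaps AC012181.1 and AC012181.2 on the same strand, and the counting rule for shared reads is not given in the sources used here.

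SEL1L (ENSG00000071537, chromosome 14, 81471549 to 81533861, GRCh38), the adaptor that holds HRD1, moved the other way. Its level was 22.1 and 21.3 FPKM in controls and 24.7 and 24.0 FPKM with drug, so both drug libraries were higher. It rose by 12.3%, from 21.7 ± 0.613 to 24.4 ± 0.529 FPKM (SD, n = 2 each; limma adjusted p = 0.0462, log2 fold change 0.16 ± 0.04 SE). The call on SEL1L was lost whichever library was left out (adjusted p from 0.0995 to 0.159), and edgeR gave an adjusted p of 0.0611. SYVN1, the HRD1 ubiquitin ligase gene itself, was at 11.3 and 10.5 FPKM in controls and 10.4 and 10.8 FPKM with drug. Its groups overlapped (log2 fold change -0.03, limma adjusted p = 0.675), and its span overlaps the ribosomal protein gene FAU on the same strand.

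The other ERAD genes split in the same small range, and none passed limma. EDEM1, whose product trims mannose from misfolded glycoproteins, was at 14.3 and 14.7 FPKM in controls and 13.0 and 13.2 FPKM with drug (limma adjusted p = 0.0591). EDEM1 passed as lower by edgeR (adjusted p = 0.0114) and in limma after TMM rescaling. Its relative EDEM3 was at 6.49 and 6.59 FPKM in controls and 7.24 and 7.24 FPKM with drug (limma adjusted p = 0.0868). The derlin genes, which encode membrane components of the exit channel, also had both drug libraries above both controls, as had 40.3% of all genes tested. DERL1 was at 12.4 and 12.9 against 13.6 and 13.6 FPKM, and DERL2 at 11.7 and 12.1 against 13.1 and 13.0 FPKM (limma adjusted p = 0.130 and 0.0828). OS9, a lectin that brings glycoproteins to SEL1L, overlapped between groups (21.0 and 22.5 against 22.5 and 21.9 FPKM).

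**Figure D2:**
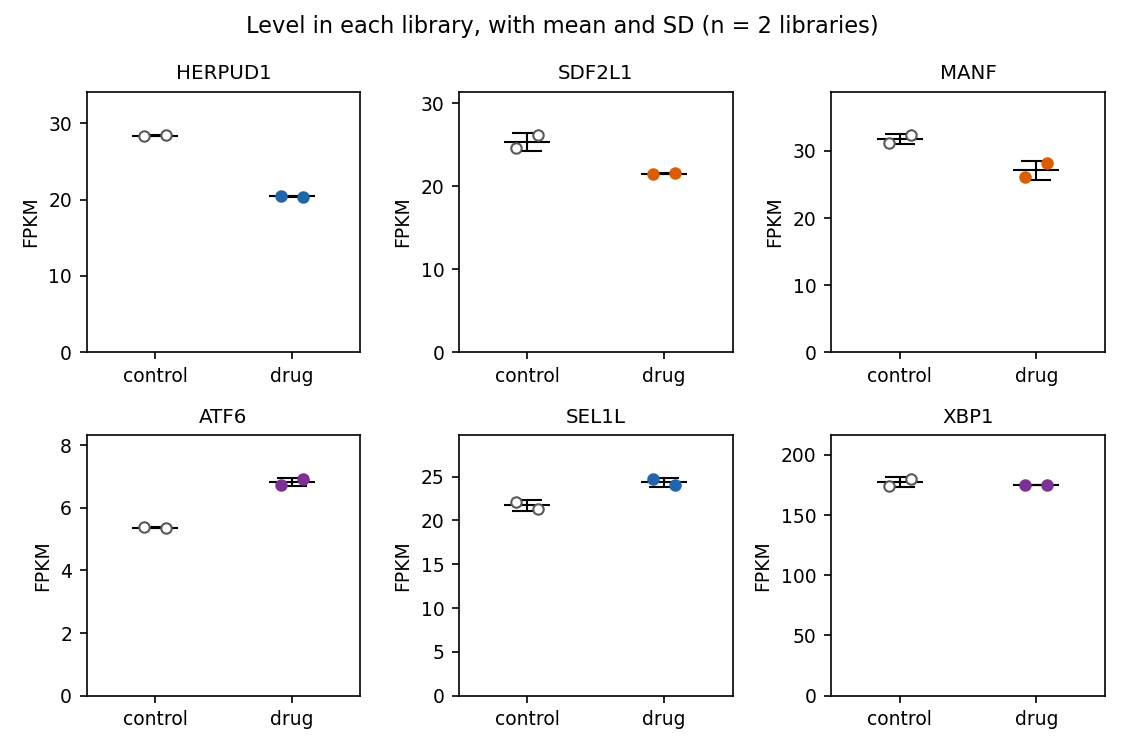
FPKM of HERPUD1, SDF2L1, MANF, ATF6, SEL1L and XBP1 in each library (vertical axes start at 0), with the group mean and SD of 2 libraries. HERPUD1, SDF2L1 and MANF are lower and ATF6 and SEL1L higher in both drug libraries, while the XBP1 values of the groups overlap.

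Of 10 tested folding genes 2 fell and none rose, beside 6.02% lower and 7.78% higher over all genes tested. The median log2 fold change of the 10 was -0.07. SDF2L1 (ENSG00000128228, chromosome 22, 21642261 to 21644298, GRCh38) encodes an ER-resident partner of the BiP cochaperone system, and its level was 24.6 and 26.1 FPKM in controls and 21.4 and 21.6 FPKM with drug. Both drug libraries were lower. SDF2L1 fell by 15.2%, from 25.4 ± 1.08 to 21.5 ± 0.0720 FPKM (SD, n = 2 each; limma adjusted p = 0.0249, log2 fold change -0.23 ± 0.04 SE). It rested on 743 to 1068 reads per library, the fewest of the 5 called genes.

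MANF (ENSG00000145050, chromosome 3, 51385047 to 51389397, GRCh38), an ER-retained and secreted factor that binds BiP, was at 31.2 and 32.3 FPKM in controls and 26.1 and 28.1 FPKM with drug. Its groups did not overlap either. MANF fell by 14.6%, from 31.8 ± 0.772 to 27.1 ± 1.42 FPKM (SD, n = 2 each; limma adjusted p = 0.0376, log2 fold change -0.22 ± 0.04 SE). SDF2L1 and MANF lost their limma calls whichever library was left out, with adjusted p from 0.0533 to 0.102 and from 0.0545 to 0.137. Both passed as lower by edgeR (adjusted p = 0.0284 and 0.00305).

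The genes of the lectin chaperone cycle had lower values in both drug libraries. CALR, calreticulin, was the most abundant of the ER genes, at 513 and 516 FPKM in controls and 489 and 493 FPKM with drug. CANX, its membrane-bound relative calnexin, was at 19.4 and 20.04 FPKM in controls and 18.5 and 17.5 FPKM with drug. UGGT1, whose product puts glucose back on unfolded glycoproteins for another cycle, was at 38.8 and 37.6 FPKM in controls and 36.0 and 36.3 FPKM with drug. The groups did not overlap in any of these 3 genes, but none passed limma (adjusted p = 0.118, 0.0970 and 0.143). Over all genes tested, 23.3% had both drug libraries below both controls. By edgeR each of the 3 was called lower (adjusted p = 0.0233, 0.0286 and 0.0493), beside 9.61% of all genes tested. Among genes with a control mean of at least 20 FPKM, which include CALR and UGGT1, edgeR called 20.5% lower.

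Of the protein disulphide isomerase genes none passed limma. PDIA4 was at 215 and 220 FPKM in controls and 205 and 204 FPKM with drug, and PDIA6 at 137 and 138 against 132 and 129 FPKM. PDIA4 was called lower by edgeR (adjusted p = 0.0226) and PDIA6 was not (0.0633), and the limma values were 0.0778 and 0.130. P4HB, the classical isomerase, was at 69.2 and 71.2 FPKM in controls and 67.7 and 68.9 FPKM with drug (limma adjusted p = 0.391). PDIA3, which works with calnexin and calreticulin, overlapped between groups (72.6 and 71.8 against 72.4 and 71.0 FPKM). Its processed pseudogene PDIA3P1 was listed at 12.0 and 12.2 FPKM in controls and 12.7 and 12.4 FPKM with drug, and how reads were shared between the copies was not tested. CRELD2, an ER stress-induced gene with isomerase-like motifs, had overlapping groups, and its replicates differed by more than its group means (7.01 and 7.90 against 7.96 and 7.12 FPKM).

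Count-based tests called more of these genes lower. With edgeR on recovered reads 2 of the 35 were higher (all genes tested, 7.93%) and 9 lower (all genes, 9.61%), and 6 of the 9 were folding genes. The other 3 were HERPUD1, EDEM1 and SEC61G, and the 2 called higher were ATF6 and ERN1. By the adjusted p of the authors' deposited table, at a threshold of 0.05, 3 of the 35 were higher (all genes, 7.26%) and 10 lower (all genes, 9.06%). That table also has a column of change labels, in which 42 genes are UP and 91 DOWN, and all of these have an absolute log2 fold change of at least 1. The authors' deposited table labels all 36 ER genes STABLE in that column, HERPUD1 and ATF6 included. The same counts were taken among abundant genes. Among genes with a control mean of at least 20 FPKM, edgeR called 10.0% higher and 20.5% lower, and of the 24 ER genes in that range it called 0 higher and 7 lower. The median log2 fold change of all genes tested was 0.036 in limma and 0.008 in edgeR.

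**Figure D3:**
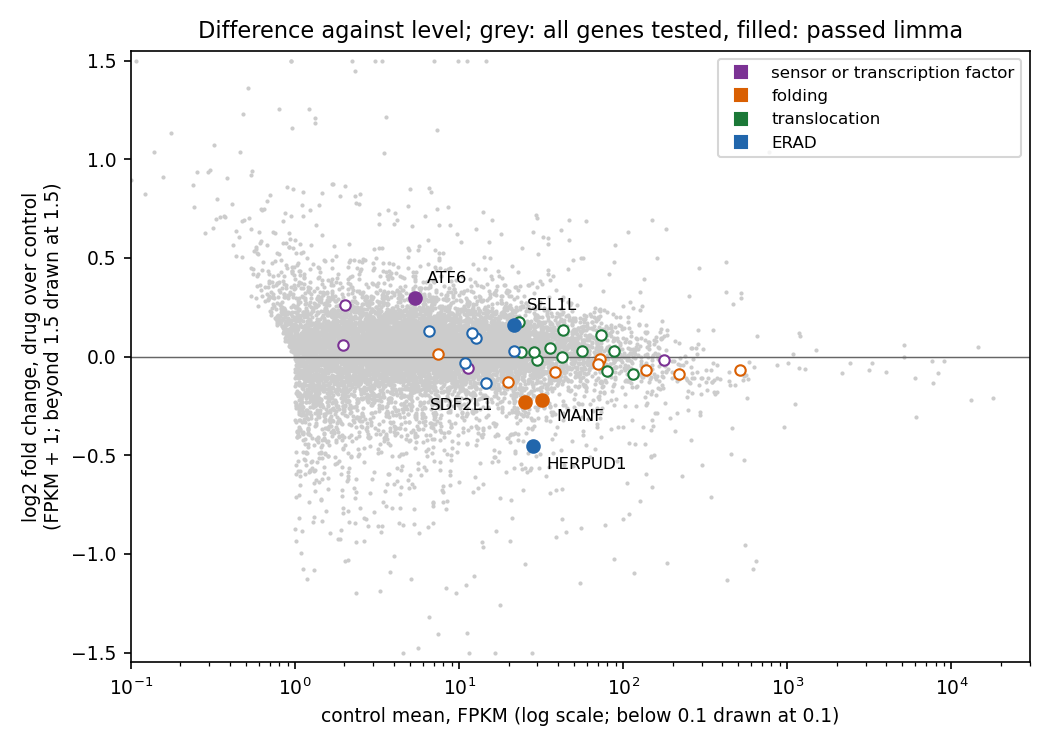
Log2 fold change of drug over control (vertical axis, FPKM + 1 scale) against control mean FPKM (horizontal log axis) for 11227 genes in grey and the 35 ER genes in colour by role, filled where limma passed. The ER genes lie inside the cloud of all genes at every level, with HERPUD1 lowest at -0.46.

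Of the sensors and transcription factors, ATF6 rose. ATF6 (ENSG00000118217, chromosome 1, 161766294 to 161964070, GRCh38) encodes the sensor that is cleaved in the Golgi to release a transcription factor, and its level was 5.37 and 5.35 FPKM in controls and 6.72 and 6.92 FPKM with drug. Its control replicates were nearly equal, and both drug libraries were higher. ATF6 rose by 27.2%, from 5.36 ± 0.0140 to 6.82 ± 0.142 FPKM (SD, n = 2 each; limma adjusted p = 0.0150, log2 fold change 0.30 ± 0.04 SE). The call on ATF6 was lost whichever library was left out (adjusted p from 0.0606 to 0.0818), and it passed edgeR (adjusted p = 0.000422). The gene overlaps AL391825.1 on the same strand.

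ERN1, the gene of the IRE1 kinase and endonuclease, was at 2.02 and 1.99 FPKM in controls and 2.37 and 2.87 FPKM with drug. Both drug libraries were higher but varied more than the controls (SD 0.354 against 0.0246 FPKM, n = 2 each), and ERN1 did not pass limma (log2 fold change 0.26 ± 0.09 SE, adjusted p = 0.109). It passed edgeR as higher (adjusted p = 0.0143). EIF2AK3, the PERK gene, was at 1.96 and 1.96 FPKM in controls and 2.12 and 2.06 FPKM with drug (limma adjusted p = 0.562). XBP1, whose messenger RNA is spliced by IRE1, ranked after CALR and PDIA4 in FPKM among these genes. It was at 174 and 180 FPKM in controls and 175 and 175 FPKM with drug, and the groups overlapped (limma adjusted p = 0.693, log2 fold change -0.02 ± 0.03 SE). Gene-level values do not separate spliced from unspliced XBP1. CREB3L2, a membrane-bound transcription factor of secretory cells, was at 11.5 and 11.3 FPKM in controls and 10.6 and 11.3 FPKM with drug (limma adjusted p = 0.413).

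Of the 12 translocation genes none passed limma, and their log2 fold changes ran from -0.09 to 0.18. SEC61G, the gamma subunit of the channel, was at 114 and 116 FPKM in controls and 108 and 109 FPKM with drug and was called lower by edgeR (adjusted p = 0.0441). SEC61B, the beta subunit, was at 77.9 and 80.9 FPKM in controls and 75.5 and 75.4 FPKM with drug. SEC61A1, the pore-forming subunit, was at 35.6 and 36.4 FPKM in controls and 37.2 and 37.03 FPKM with drug. In FPKM both drug libraries thus lay lower for SEC61G and SEC61B and higher for SEC61A1, with limma adjusted p-values of 0.0757, 0.156 and 0.338. The SEC61A1 difference was small and depended on scaling. Its log2 fold change was 0.043 in FPKM and 0.015 after TMM rescaling (limma adjusted p = 0.799).

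Translocon-associated protein genes, which assist the entry of some signal peptides, were also mixed. SSR3 was at 72.4 and 74.1 FPKM in controls and 78.4 and 79.5 FPKM with drug (limma adjusted p = 0.0611). SSR1 (55.9 and 56.5 against 57.7 and 56.7 FPKM) differed by 1.85%, and SSR2 (29.5 and 30.5 against 29.4 and 29.7 FPKM) and SSR4 (40.9 and 43.8 against 42.1 and 42.5 FPKM) overlapped between groups. The signal peptidase genes SPCS1 (24.2 and 23.7 against 24.3 and 24.3 FPKM) and SPCS3 (28.8 and 28.4 against 28.7 and 29.6 FPKM) differed by under 2%. SPCS2 was at 41.3 and 45.1 FPKM in controls and 48.4 and 46.7 FPKM with drug (limma adjusted p = 0.131). Its pseudogene SPCS2P4 was listed at 17.6 and 9.89 FPKM in controls and 15.2 and 13.5 FPKM with drug.

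SRPRB, which anchors the receptor of the signal recognition particle, had the largest log2 fold change among translocation genes, 0.18 ± 0.07 SE. It was at 21.8 and 24.7 FPKM in controls and 27.2 and 25.5 FPKM with drug, and it did not pass limma (adjusted p = 0.142). Its annotated span overlaps the transferrin gene TF on the same strand, and TF itself fell (log2 fold change -0.22, limma adjusted p = 0.0109). TRAM1, a membrane protein beside the channel, was at 87.7 and 87.5 FPKM in controls and 89.2 and 89.3 FPKM with drug (limma adjusted p = 0.467).

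Other genes of the pathway, from 5 lists of 141 genes outside the 37, gave 128 tested genes, of which 10 rose (7.81%) and 3 fell (2.34%), beside 7.78% and 6.02% of all genes. Their median log2 fold change was 0.04. The BiP gene HSPA5, the central ER chaperone, was at 241 and 243 FPKM in controls and 239 and 237 FPKM with drug and did not pass limma (adjusted p = 0.458). HSP90B1, the gene of GRP94, was at 138 and 133 against 135 and 128 FPKM (adjusted p = 0.482). HSPA5 and HSP90B1 carry an ERSE in the searched window, as does ERO1B (3 of 116 related genes with a window, against 0.074% of all windows). Among the 116, the UPRE lay in windows of DNAJC10, SEC62, SRP19, TXNDC5, UBE2J1 and VCP (6 genes, against 0.612% of all windows).

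Among 34 chaperone and oxidoreductase genes 3 rose (8.82%) and none fell, beside 7.78% and 6.02% of all genes tested. All 3 encode J-domain proteins that work with BiP. By edgeR 2 of the 34 were higher and 3 lower, beside 7.93% and 9.61% of all genes tested. DNAJB9, which represses IRE1 and aids ERAD, rose from 34.4 ± 0.206 to 40.3 ± 0.0426 FPKM (SD, n = 2 each; limma adjusted p = 0.0106). DNAJC10, a disulphide reductase, rose from 15.9 ± 0.145 to 17.9 ± 0.0451 FPKM, and DNAJC3 rose from 53.2 ± 0.892 to 58.9 ± 0.476 FPKM (limma adjusted p = 0.0299 and 0.0321). Each of these 3 calls was lost whichever library was left out, with adjusted p between 0.0580 and 0.139. DNAJC3 also missed the threshold in edgeR (adjusted p = 0.0539).

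Of 28 other ERAD genes 3 rose (10.7%) and 1 fell (3.57%), beside 7.78% and 6.02% of all genes tested. FAM8A1, a cofactor that binds HRD1, fell from 43.0 ± 0.333 to 36.1 ± 0.0433 FPKM (SD, n = 2 each; log2 fold change -0.25, limma adjusted p = 0.00818), and it lost its call only without control 1 (adjusted p = 0.0537). ERLIN1, a membrane scaffold in the degradation of inositol trisphosphate receptors, rose from 66.8 ± 0.318 to 76.8 ± 1.49 FPKM. The J-domain gene DNAJB12 rose from 8.04 ± 0.164 to 9.40 ± 0.0623 FPKM and the ubiquitin ligase gene MARCHF6 from 13.7 ± 0.0250 to 15.4 ± 0.0740 FPKM. By limma their adjusted p was 0.0145, 0.0304 and 0.0357, and each call was lost whichever library was left out (0.0543 to 0.148). No gene passed limma among 21 for N-glycan attachment and processing or 28 for targeting and insertion. By edgeR 1 of the glycan genes was higher and 5 of 21 were lower, and 0 of the targeting genes were called, beside 7.93% higher and 9.61% lower over all genes tested.

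Of 17 other unfolded protein response genes 4 rose and 2 fell. By limma these are 23.5% and 11.8%, beside 7.78% and 6.02% of all genes tested. By edgeR 3 of the 17 were higher and 2 lower, beside 7.93% and 9.61% of all genes tested. By the authors' adjusted p 2 were higher and 1 lower, beside 7.26% and 9.06%. The risers by limma were CREB3L3, CREB3, CREB3L4 and WFS1. Of these, WFS1 lay outside the naming rule and is named after its values were seen (log2 fold change 0.22, limma adjusted p = 0.0413). CREB3L3, a membrane-bound transcription factor of the liver, was at 30.2 and 29.6 FPKM in controls and 39.4 and 37.7 FPKM with drug (limma adjusted p = 0.00664, log2 fold change 0.35 ± 0.03 SE), and it kept its call with each library left out. CREB3 rose from 42.1 ± 0.684 to 51.6 ± 1.89 FPKM and CREB3L4 from 2.84 ± 0.0663 to 3.60 ± 0.0534 FPKM (SD, n = 2 each; limma adjusted p = 0.0121 and 0.0374). CREB3 kept its call without drug 2 (0.0349) and lost it without any other library (up to 0.0692). CREB3L4 failed to pass with any library left out (0.114 to 0.148) and did not pass edgeR (0.115). Their relative CREB3L2, among the 37 genes, did not pass limma (log2 fold change -0.06, adjusted p = 0.413).

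On the PERK side, ATF4, the transcription factor translated when eIF2 alpha is phosphorylated, fell from 144 ± 2.19 to 131 ± 0.637 FPKM (SD, n = 2 each; log2 fold change -0.13, limma adjusted p = 0.0347). CHAC1, an ATF4 target that degrades glutathione, fell from 7.53 ± 0.280 to 6.12 ± 0.367 FPKM (limma adjusted p = 0.0403). Both calls were lost whichever library was left out (0.0718 to 0.149). DDIT3, the gene of CHOP, was at 9.39 and 10.9 FPKM in controls and 10.8 and 10.98 FPKM with drug, and its groups overlapped (limma adjusted p = 0.369). The ATF4-type element lay in windows of CHAC1, MCFD2 and PPP1R15B. These are 3 of 116 related genes with a window, against 3.14% of all windows.

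**Figure D4:**
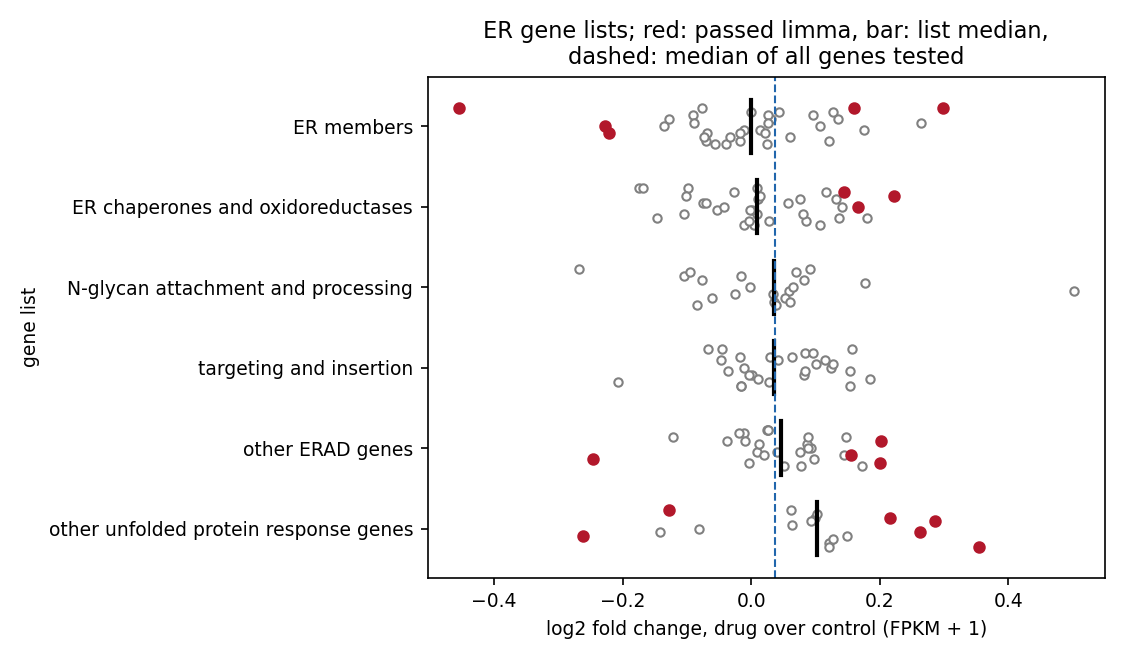
Log2 fold change of drug over control (horizontal axis, FPKM + 1 scale) for each tested gene of the 37-gene set (ER members) and of 5 related lists (vertical axis); red points passed limma, black bars are list medians and the dashed line is the median of all genes tested, 0.036. The called ER genes are HERPUD1, SDF2L1 and MANF on the left and ATF6 and SEL1L on the right, and 2 of the 5 related lists hold no called gene.

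Read against the promoter sites shown above, the 7 genes with ERSE or ERSE-II did not share a call. HERPUD1 and SDF2L1 fell, CALR and CANX were called lower by edgeR alone of those 2 tests, and PDIA6, XBP1 and CRELD2 passed neither limma nor edgeR. For MANF, ATF6 and SEL1L, which changed, the search found none of the 5 motifs. It covered only the 250 bases before annotated starts, in 32 of the 36 genes. A site elsewhere, or before a gene without a window, would be missed. Which genes lacked a window is not given here.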

How the data were processed

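RNA-seq libraries of PLC8024 cells (2 control, 2 drug) were made with a stranded mRNA kit, per the labels' protocols. Per the submitters' processing notes bcl2fastq was used and the build was hg38. The aligner, the gene counter and the authors' test were not given in the sources used here. For HERPUD1, ATF6 and MANF the deposited log2 fold changes (-0.5075, 0.3136 and -0.263) equal those of DESeq2 on recovered reads. The deposited test results are therefore not evidence separate from that alternative. What the authors deposited is FPKM per library (a unit read from the values), group mean read counts after scaling by library (a signal), a log2 fold change, p-values with adjusted p-values, and a change label.

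FPKM and the group means together gave whole reads per library, and 100% came within 0.1 of whole. The filter was a group mean of 1 FPKM or more, and the test was limma 3.58.1 (trend, two-sided) on log2(FPKM + 1), with Benjamini-Hochberg adjustment over 11227 genes and a threshold of 0.05. Fold changes on this scale understate changes of low genes. An exact permutation of 2 against 2 libraries cannot go below p = 0.333, so none was run. Alternatives were pseudocounts of 0.1 and 0.01, no filter, TMM-scaled FPKM, edgeR 4.0.16 (with its own filter on low counts) and DESeq2 1.42.0 on recovered reads, each library left out in turn and a replicate block. Recovery and limma were tested on simulated data. There limma recovered 10% of 50 genes changed 1.25-fold, 58% of 50 changed 1.5-fold and 84% of 50 changed 2-fold. Of 136 genes called in the simulation, 15 were unchanged. On the log2(FPKM + 1) scale 1 of the tested ER genes, HERPUD1, lay past 1.25-fold. What share of smaller differences limma recovers among the ER genes was not tested. Their median control level was 28.6 FPKM, against 6.24 FPKM for all genes tested. R 4.3.3 and Python 3.11.15 were used.

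The 37 genes, the related lists and the tests were chosen with earlier results of these data known. Named genes were all 37, up to 3 rises and 3 falls of each related list among called genes at a mean of 2 FPKM or more, and HSPA5, HSP90B1, DNAJB9, ATF4 and DDIT3. Coordinates are from GENCODE 29, matched by gene identifier. Promoters are from RefSeq. Of 44 windows of these genes, 39 had their downstream bases in a GENCODE transcript of the gene.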

Additional observations from a re-analysis of the deposited data

How the results depend on the processing

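HERPUD1 kept its call in all 11 alternatives, and so did CREB3L3. The other 4 called ER genes lost theirs without the low-value filter and with each library left out. The counts given here are genes called by the named test at adjusted p under 0.05. For the ER genes, 2 higher became 0 without the filter, 1 with TMM-scaled FPKM, 1 with the replicate block and 0 with any library left out. ER genes called lower, 3 in limma, were 1 without the filter, 9 by edgeR, 10 by DESeq2 and 1 with any library left out. Of the related genes, 10 higher became 2 without the filter, 6 with TMM, 5 with the replicate block and 1 to 2 with a library left out, and 3 lower became 1 without the filter, 12 by edgeR, 12 by DESeq2 and 0 to 1 with a library left out. Over all genes, 873 higher became 170 without the filter, 549 with TMM, 474 with the replicate block and 115 to 221 with a library left out. The 676 lower became 214 without the filter, 1195 by edgeR, 1222 by DESeq2 and 188 to 274 with a library left out. The split of higher against lower calls also moved, from 873 and 676 to 549 and 724 with TMM and to 953 and 1195 by edgeR. Leaving a library out leaves fewer samples. The causes of the other shifts were not tested.

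Replicate numbers were not shown to pair the libraries, since the deviations of same-numbered libraries had a correlation of 0.028 over 11227 genes, with only 2 pairs, so the replicate block is an alternative.

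Among the ER genes, signs reversed only in genes that limma did not call. With TMM, edgeR and DESeq2 in that order the log2 fold change was -0.011, -0.020 and -0.019 for CRELD2, -0.0026, -0.0085 and -0.0070 for SSR1, -0.028, -0.036 and -0.035 for SSR4, -0.0064, -0.013 and -0.011 for SPCS1, -0.0035, -0.0097 and -0.0079 for SPCS3, and -0.0019, -0.0080 and -0.0063 for TRAM1. For OS9 edgeR gave -0.0037 and DESeq2 -0.0030. With a library left out the log2 fold change ran from -0.062 to 0.090 for CRELD2, -0.082 to 0.017 for SYVN1, -0.040 to 0.0056 for XBP1, -0.024 to 0.0031 for PDIA3, -0.041 to 0.0055 for SSR2, -0.048 to 0.049 for SSR4 and -0.015 to 0.077 for OS9.

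With 2 libraries a group and no named agent, the smallest difference that limma called among the ER genes was 12.3% (SEL1L). A gene that missed the threshold is not shown to be equal between groups. Where a lone library stands for a group, it is assumed to vary like the other group.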
